A study of Mus musculus with 6 samples.

Results

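The enzymes described are 37 genes of mitochondrial fatty acid oxidation and ketone body metabolism, chosen by name: 5 long-chain acyl-CoA synthetases, 5 acyl-CoA thioesterases, 5 genes of carnitine-dependent entry, 7 acyl-CoA dehydrogenases, 6 enzymes of the later steps of the spiral, 3 for unsaturated fatty acids, 3 of electron transfer and 3 of ketone bodies. The rule is a list of names and uses no measured value, though the list was drawn up with earlier results of these data known. Of the 37, 36 had a probe set named for them among 18193 named genes, and Acsl1 was not analysed here. Bdh1 was too dim to test, which left 35 of the 13658 genes that passed the filter on dim signal (a mean intensity of at least 163.6). All cells were mouse brown preadipocytes immortalised with the SV40 large T antigen and differentiated into adipocytes for 7 days. The wild-type group carried intact PGC-1alpha, and its titles name no siRNA. The knockout-control group was PGC-1alpha -/- and expressed a control siRNA, and the knockdown group was PGC-1alpha -/- and expressed an siRNA against PGC-1beta. Each group had 2 arrays, described as biological replicates in the series design. The knockdown rests on a single siRNA with no rescue, and only the wild-type labels state a passage, 4.

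Fatty acids are burned in brown adipocytes to drive heat production. A fatty acid is first joined to coenzyme A by an acyl-CoA synthetase, a thioesterase can undo that step, and the long chain crosses the inner mitochondrial membrane as a carnitine ester. Inside, each turn of the beta-oxidation spiral runs through dehydrogenation, hydration, a further dehydrogenation and thiolysis. The electrons of the acyl-CoA dehydrogenases pass through the electron transfer flavoprotein and its dehydrogenase to ubiquinone. Ketone bodies made by the liver are converted back to acetyl-CoA by Oxct1 and Acat1. PGC-1alpha and PGC-1beta are coactivators of nuclear receptors such as the PPARs and the estrogen-related receptors, which are known to bind near many of these genes.

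The arrays had median intensities of 220.9 to 242.7, and 17 to 360 cells per array were empty, the most on knockdown array 2, which also had the lowest median. A further 566 to 1221 cells per array were marked null and were also left missing. Knockout-control array 1 had 334 empty cells and the fewest probe sets with a value, 43482, against 43993 on knockdown array 2. PGC-1beta (Ppargc1b) had intensities of 2850 and 3162 in wild type, 1862 and 2302 in knockout-control and 534 and 224 in the knockdown group, and it was 5.53-fold lower in knockdown than in knockout-control (limma adjusted p = 0.022). PGC-1alpha (Ppargc1a) had 1338 and 1319, 767 and 830.4, and 1146 and 648 in the same order. No label says whether its probe set lies inside the deleted part of the gene, so it does not check the labels. The brightest probe set of the Y-linked gene Eif2s3y had 872 and 960.5 in wild type, 6.25 and 5.13 on array 2 of each PGC-1alpha -/- group and no value on array 1 of each, and its second probe set was at most 54.5 on any array. Of 3 Xist probe sets, one had 57.9 and 116 in wild type and 2593 to 4307 on 3 PGC-1alpha -/- arrays, with no value on the other. Another had no value in wild type and 849 to 1648 on the 4 PGC-1alpha -/- arrays, and the last was at 182 to 253 on all 6 arrays. Genotype, siRNA vector, passage, cell line and sex therefore cannot be told apart in any comparison with wild type. Of 8 brown adipocyte markers, 4 fell in knockdown against knockout-control (Ucp1, Cidea, Cox7a1 and Dio2). The other 4 were not called, with log2 differences of 0.52 for Cox8b, 0.28 for Zic1, 0.17 for Elovl3 and -0.39 for Prdm16. The summed intensity of all 8 ran from 24020 to 24317 in wild type, 20807 to 20971 in knockout-control and 8771 to 11786 in the knockdown group. None of 6 general adipocyte markers was called in that comparison, with sums of 54378 to 59155 in knockout-control and 50605 to 52922 in the knockdown group. Of 4 preadipocyte and fibroblast markers tested Dlk1 rose, 3.53-fold, in knockdown against knockout-control (limma adjusted p = 0.00696), and the sums of that list were 3165 to 3737, 2350 to 2704 and 3583 to 3964. No skeletal muscle, cardiac, macrophage or endothelial marker that could be tested was called in any comparison. The muscle markers Myog, Mylpf and Tnnt3 and the hepatocyte marker Alb were too dim to test. So were the macrophage marker Cd68 and the endothelial markers Pecam1 and Cdh5. Cd68 had 213 and 200 in the knockdown group against 79.9 to 117 on the other arrays. Against wild type, Elovl3 rose and Zic1 fell in both PGC-1alpha -/- groups, and Ucp1, Cidea, Cox7a1, Dio2 and Prdm16 also fell in the knockdown group. The adipocyte marker Retn rose in both groups, and the other general adipocyte markers tested were not called. The median log2 differences of the 6 were 0.002 in knockout-control and -0.04 in knockdown. The fibroblast marker Col1a1 fell in both groups, and Dlk1 and Pdgfra rose in the knockdown group. Thy1 was not called (-0.13 in knockout-control and -0.385 in knockdown). The smooth muscle markers Tagln and Acta2 fell in both groups, while Myh11 was not called (log2 0.25 in knockout-control and -0.01 in knockdown). The hepatocyte marker Apoa1 rose in the knockdown group, and Ttr was not called (0.24 and 0.22). The part of differentiation state in the results on the enzymes was not tested, and in bulk RNA fewer cells of a type and less RNA per cell cannot be told apart.

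The promoters of 4 genes, chosen after their values were seen, are shown to set both kinds of pattern side by side. Acadvl and Etfdh were lower in the knockdown group than in wild type and level in knockout-control, and Acsl5 and Hsd17b10 were higher in both PGC-1alpha -/- groups than in wild type. Each is the 250 bases before the annotated start, 5′ to 3′ on the gene's strand, from RefSeq on GRCm38.p6. Capitals mark the core hexamer AGGTCA, which PPARs and estrogen-related receptors bind, in Acadvl and the palindromic site of the factor NRF1 in Etfdh.
Acadvl, chr11:70015429-70015678, minus strand: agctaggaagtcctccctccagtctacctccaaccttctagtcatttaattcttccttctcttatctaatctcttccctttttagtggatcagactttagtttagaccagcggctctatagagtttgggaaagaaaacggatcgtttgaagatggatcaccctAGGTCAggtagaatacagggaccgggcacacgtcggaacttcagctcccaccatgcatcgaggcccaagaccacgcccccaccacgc
Etfdh, chr3:79628768-79629017, minus strand: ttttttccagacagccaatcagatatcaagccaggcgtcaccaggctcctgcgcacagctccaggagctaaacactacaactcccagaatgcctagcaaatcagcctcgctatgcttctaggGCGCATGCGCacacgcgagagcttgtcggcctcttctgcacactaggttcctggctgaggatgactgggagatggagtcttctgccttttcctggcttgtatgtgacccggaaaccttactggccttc
Acsl5, chr19:55253119-55253368, plus strand: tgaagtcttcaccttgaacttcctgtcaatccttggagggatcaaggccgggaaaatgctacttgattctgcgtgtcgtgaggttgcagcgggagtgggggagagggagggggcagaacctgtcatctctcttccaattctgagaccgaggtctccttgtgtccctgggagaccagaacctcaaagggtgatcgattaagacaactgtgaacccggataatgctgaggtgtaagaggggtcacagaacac
Hsd17b10, chrX:152001646-152001895, plus strand: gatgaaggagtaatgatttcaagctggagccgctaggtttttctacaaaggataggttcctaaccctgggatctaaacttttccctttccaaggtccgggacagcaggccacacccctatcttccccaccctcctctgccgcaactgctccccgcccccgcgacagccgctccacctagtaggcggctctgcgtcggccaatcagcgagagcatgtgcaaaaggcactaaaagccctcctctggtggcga

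The hexamer in Acadvl starts 87 bases before the start site, and the NRF1 site in Etfdh starts 128 bases before it. Of the 37 genes, 31 had a promoter entry, with 36 promoters in all, and 6 had none (Crat, Acad9, Acaa2, Decr1, Acot13 and Acat1). Both strands were searched in 32851 promoters of the same length. AGGTCA was in 5 of the 36 promoters (Acadm, Acadvl, Acsl6, Cpt1a and Echs1) and in 14.0% of all promoters. The longer estrogen-related receptor motif TCAAGGTCA, which contains the hexamer, was in the promoter of Acsl6 and in 0.387% of all. The PPAR-RXR repeat (AGGTCA, any 1 base, AGGTCA), which also contains it, was in none of the 36 and in 0.0335% of all. The NRF1 site, spelled as the capitals in Etfdh, was in that promoter and in 0.782% of all, and the ETS motif CCGGAAG was in Cpt2 and Mlycd and in 6.91% of all. These matches are letters in a window and were not related to the expression values by any test.

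Against wild type, the share of enzymes called in the knockout-control cells was near that of all genes. Acsl5 and Hsd17b10 rose and Acsl3 fell, which was 3 of 35 enzymes or 8.57%, against 6.05% of all 13652 genes tested (called at a limma adjusted p under 0.05). By direction, 2.55% of all genes rose and 3.5% fell. An unadjusted limma p under 0.05 was reached by 10 of the 35, or 28.6%, against 21.1% of all genes. The median log2 fold change of the 35 was -0.01, against 0.00 over all genes, and single values ran from -1.08 to 0.81. Under quantile normalization the median of the 35 was 0.01, so it had no settled sign. Groups did not overlap for 21 of the 35, or 60%, against 58.2% of all genes. The 3 calls were lost without wild-type array 1 (limma adjusted p = 0.07 to 0.163), wild-type array 2 (0.147 to 0.185) or knockout-control array 1 (0.143 to 0.16). Without knockout-control array 2, Acsl3 stayed called and Acsl5 (0.0725) and Hsd17b10 (0.0911) did not.

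Between knockdown and knockout-control, both PGC-1alpha -/-, only Acadvl passed the test among the 35, and it fell. That is 2.86% of the enzymes, against 0.835% of the 13649 genes tested, of which 37 rose (0.271%) and 77 fell (0.564%). With arrays scaled to the same median 139 genes rose and 169 fell, and with quantile normalization 191 rose and 186 fell. The fold change was negative for 24 enzymes and positive for 11, with a median of -0.16 on the log2 scale against -0.01 over all genes. That median was -0.099 with quantile normalization and with scaled medians, against 0.05 over all genes. The range ran from -0.92 for Acadvl to 0.67 for Cpt1a. Without knockdown array 1 the median of the enzymes was -0.31, and without knockdown array 2 it was -0.055. An unadjusted p under 0.05 was reached by 12 of the 35, or 34.3%, against 14.1% of all genes. The call of Acadvl was kept without knockdown array 1 (limma adjusted p = 0.0172). It was lost without either wild-type array (0.0872 for each), knockout-control array 1 (0.263), knockout-control array 2 (0.169) or knockdown array 2 (0.0571). The wild-type arrays enter this difference only through the estimate of the spread. Fitting only the groups compared gave Acadvl the same limma adjusted p, 0.0872. Groups did not overlap for 23 of the 35, or 65.7%, against 39.5% of all genes.

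Against wild type, the knockdown cells showed 12 called enzymes of 35, or 34.3%, against 10% of the 13644 genes tested. The 4 that rose were Acsl5, Hsd17b10, Crat and Slc22a5. Hsd17b10 had a value on 1 knockdown array only, and with only genes measured on every array 11 were called, of which 3 rose. The 8 that fell were Acadvl, Acsl3, Acaa2, Etfdh, Cpt2, Acat1, Acad9 and Etfa, or 22.9% of the enzymes against 6% of all genes. Over all genes 546 rose (4.00%) and 819 fell, and with quantile normalization 1270 rose and 1035 fell. The median log2 fold change of the enzymes was -0.22, against -0.03 over all genes, and 23 of the 35 values were negative. With quantile normalization that median was -0.089. Groups did not overlap for 28 of the 35, or 80%, against 55.6% of all genes. All 12 calls were lost without wild-type array 1 (limma adjusted p = 0.0696 to 0.3) and without wild-type array 2 (0.086 to 0.347), while each fold change kept its sign. Without either knockout-control array, 5 of the 12 were lost: Crat (0.0664), Acad9 (0.0674), Slc22a5 (0.0737), Hsd17b10 (0.0787) and Etfa (0.0799). Without knockdown array 2, Acad9 (0.0754), Acsl3 (0.0756) and Etfa (0.078) were lost, and without knockdown array 1 Slc22a5 (0.0614) was lost and Hsd17b10 could not be tested. The knockout-control arrays enter this comparison only through the estimate of the spread. Fitting only the groups compared lost the same 5 calls as leaving out either knockout-control array. The 3 comparisons share arrays, so their results are not independent of each other.

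**Figure D1:**
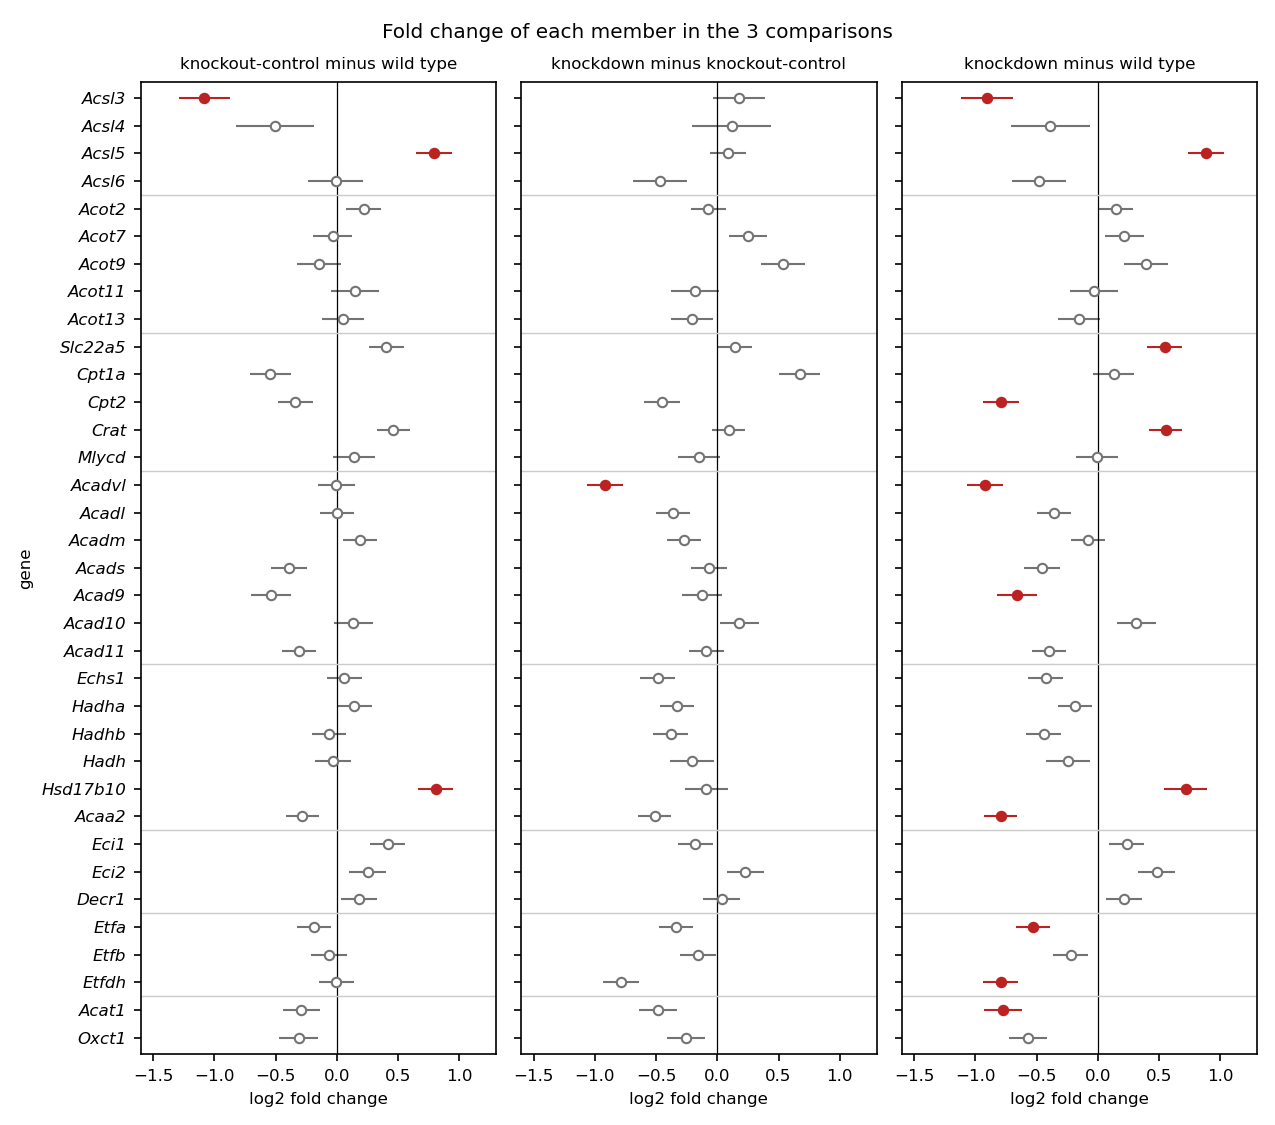
Log2 fold change of each tested enzyme, on the log2(intensity + 32) scale, in the 3 comparisons, with bars of 1 SE and filled points for enzymes called by limma. For knockout-control against wild type 16 values lie above 0 and 19 below, and for knockdown against knockout-control 11 lie above and 24 below.

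**Figure D2:**
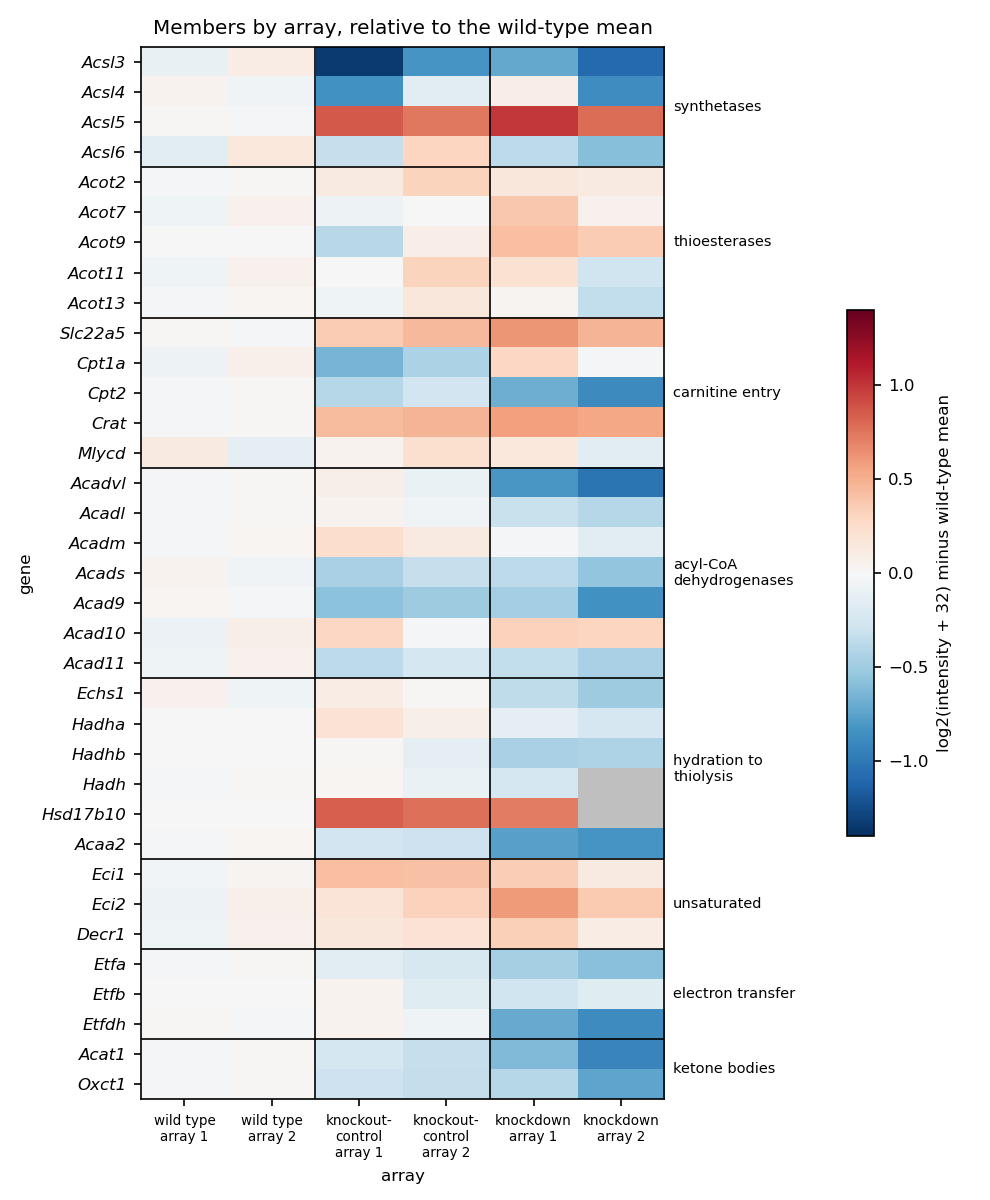
Log2 value of each enzyme on each of the 6 arrays, as the difference from that enzyme's mean over the wild-type arrays. The medians over the enzymes were -0.14 and -0.35 on the knockdown arrays and 0.03 and -0.02 on the knockout-control arrays.

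Among the acyl-CoA synthetases, Acsl3 and Acsl5 moved in opposite directions between wild type and the PGC-1alpha -/- groups. Acsl5, an activating enzyme of the outer mitochondrial membrane and endoplasmic reticulum, had intensities of 1790.3 and 1755 in wild type, 3232 and 2977 in knockout-control and 3551 and 3071 in the knockdown group. Both wild-type arrays lay below the other 4, and the PGC-1alpha -/- groups overlapped each other. Acsl5 was 1.74-fold higher in knockout-control than in wild type (log2 0.80 ± 0.15 SE, limma adjusted p = 0.018) and 1.85-fold higher in knockdown than in wild type (0.00896). Knockdown and knockout-control differed by 0.09 ± 0.15 (adjusted p = 0.841 in limma).

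Acsl3, a synthetase of the endoplasmic reticulum and lipid droplets, had 1725 and 1993 in wild type, 715 and 1031 in knockout-control and 1112 and 855 in the knockdown group. All 4 PGC-1alpha -/- arrays lay below wild type. It was 2.12-fold lower in knockout-control (log2 -1.08 ± 0.21 SE, limma adjusted p = 0.0223) and 1.87-fold lower in knockdown than in wild type (0.0315). Its brightest probe set is of a type that can pick up related transcripts, as are those of Acaa2, Hadh and Acad10. A further Acsl3 probe set above the filter gave -0.89 and -0.76. With the mean of its probe sets, one of which is under the filter, both calls were lost (-0.79 and -0.60, limma adjusted p = 0.115 and 0.18). Acsl4, which prefers arachidonic acid and lies on the X chromosome, had 1456 and 1353, 765 and 1255, and 1503 and 753. Its arrays within each PGC-1alpha -/- group were far apart, and no comparison of it passed the test. For knockdown against wild type its brightest probe set gave -0.39 and the further ones 0.42 and 0.82. Acsl6, known mainly from brain and blood cells, had 764 and 939, 669.9 and 1052, and 648 and 550.5, with the knockdown arrays below the other 4 and a log2 difference of -0.47 ± 0.22 SE from knockout-control (limma adjusted p = 0.389).

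None of the 5 thioesterases, which release free fatty acid from its CoA ester, was called in any comparison. Acot9, a mitochondrial thioesterase on the X chromosome, had 1496 and 1512 in wild type, 1139 and 1607 in knockout-control and 2024 and 1940.5 in the knockdown group. Both knockdown arrays were above the other 4, with a difference of 0.54 ± 0.18 SE from knockout-control (limma adjusted p = 0.226). Acot7 had 481 and 529.6, 478 and 506, and 663 and 528, and the groups overlapped between knockdown and wild type. Its difference from knockout-control was 0.25 ± 0.16 (adjusted p = 0.542 in limma). The values of Acot2, Acot11 and Acot13 stayed between -0.20 and 0.22 in the 3 comparisons. Acot2 is a near copy of Acot1, and how probes divide between them was not tested.

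Carnitine-dependent entry held changes of opposite sign. Cpt2, which returns acyl groups from carnitine to CoA on the matrix side, had 3334 and 3425 in wild type, 2547 and 2794 in knockout-control and 2089 and 1809 in the knockdown group. The 3 groups did not overlap and stepped down in that order. Only the outer pair passed the test, with a 1.73-fold fall (log2 -0.79 ± 0.15 SE, limma adjusted p = 0.014), against -0.34 (0.233) and -0.45 (0.218) for the steps. The mean of its probe sets gave -1.05 with an adjusted p of 0.0517 in limma.

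Cpt1a, the outer-membrane transferase that malonyl-CoA inhibits and the usual form of liver, had 599.6 and 664 in wild type, 392 and 457 in knockout-control and 778 and 617 in the knockdown group. Both knockout-control arrays were the lowest of the 6, and the wild-type and knockdown arrays overlapped. It had the highest fold change of any of the enzymes between knockdown and knockout-control, 1.59-fold (log2 0.67 ± 0.17 SE), and did not pass the test (limma adjusted p = 0.111). Its other probe sets gave 1.10 and 0.84 for that difference. The difference of knockout-control from wild type was -0.54 ± 0.17 (adjusted p = 0.101 in limma).

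Crat, which moves short acyl groups to carnitine inside the mitochondrion, had 1788 and 1822, 2470.2 and 2522, and 2696 and 2635, with no overlap between the groups. It was 1.47-fold higher in knockdown than in wild type (log2 0.55 ± 0.13 SE, limma adjusted p = 0.0373). The difference of knockout-control from wild type was 0.46 (0.0864). Its 2 further probe sets gave -0.07 and -0.08 for knockdown against wild type, and with the mean of its probe sets the adjusted p in limma was 0.638. Slc22a5, the plasma-membrane carnitine importer, had 497 and 489, 639.6 and 688, and 773 and 698. Both knockdown arrays lay above both wild-type arrays, and it was 1.46-fold higher (log2 0.55 ± 0.14 SE, limma adjusted p = 0.0451). Its second probe set gave 0.67 for that comparison. With the mean of its probe sets the value was 0.61 and the call was lost (limma adjusted p = 0.059). Mlycd, which breaks down malonyl-CoA, ran from 574 to 762 over the 6 arrays with overlapping groups.

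Of the acyl-CoA dehydrogenases, which open each turn and differ in chain-length preference, Acadvl was the enzyme with the lowest value in the knockdown group relative to both others. Acadvl acts on very long chains at the inner membrane, and it had intensities of 7054 and 7272 in wild type, 7584 and 6727 in knockout-control and 4049 and 3501 in the knockdown group. The means were 7163 ± 154, 7155 ± 606 and 3775 ± 388 (SD, n = 2). Wild type and knockout-control overlapped, and both knockdown arrays lay well below them. It was 1.89-fold lower in knockdown than in knockout-control (log2 -0.92 ± 0.15 SE, limma adjusted p = 0.0406) and 1.89-fold lower than in wild type (0.00831).

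Acadl and Acadm, for long and medium chains, differed less between the groups. Acadl had 8568 and 8731, 8974 and 8358, and 6973 and 6528, so the knockdown arrays were the lowest, with a log2 difference of -0.36 ± 0.14 SE from knockout-control (limma adjusted p = 0.292). Acadm had 8393 and 8731, 10186 and 9369, and 8459 and 7734, and wild type and knockdown overlapped. Acads, for short chains, had 1994 and 1848, 1395 and 1529, and 1484 and 1303. Its 4 PGC-1alpha -/- arrays lay below wild type, and neither difference passed (limma adjusted p = 0.177 for knockout-control and 0.091 for knockdown).

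Acad9, an acyl-CoA dehydrogenase also known as an assembly factor of respiratory complex I, had 1444 and 1379.8 in wild type, 936 and 994 in knockout-control and 1006 and 772 in the knockdown group. The PGC-1alpha -/- groups overlapped and lay below wild type. It was 1.58-fold lower in knockdown than in wild type (log2 -0.66 ± 0.16 SE, limma adjusted p = 0.0395), and the difference of knockout-control from wild type, -0.54, did not pass (0.0996). Its 3 probe sets had the same sign in each comparison. With their mean the value for knockdown against wild type was -0.60 and the call was lost (limma adjusted p = 0.0555). Acad10 and Acad11 were not called, with values from -0.40 to 0.31.

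In the later steps of the spiral, Acaa2 fell and Hsd17b10 rose in knockdown against wild type. Acaa2, the thiolase that releases acetyl-CoA, had 7429 and 7762 in wild type, 6282 and 6208 in knockout-control and 4473 and 4268 in the knockdown group. The 3 groups did not overlap. Acaa2 was 1.73-fold lower in knockdown than in wild type (log2 -0.79 ± 0.14 SE, limma adjusted p = 0.0104). The difference from knockout-control was -0.51 ± 0.14 and did not pass (adjusted p = 0.133 in limma). Its further probe sets gave -0.74 and -1.10 against wild type.

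Hsd17b10 is a short-chain hydroxyacyl-CoA dehydrogenase that also serves isoleucine breakdown and is a subunit of mitochondrial RNase P. It had 2905 and 2866 in wild type, 5198 and 4952 in knockout-control, and 4766 on knockdown array 1, with an empty cell on array 2, so the fit dropped that array for it. All 3 PGC-1alpha -/- values lay above wild type. It was 1.75-fold higher in knockout-control than in wild type (log2 0.81 ± 0.14 SE, limma adjusted p = 0.0212) and 1.64-fold higher in the single knockdown array (0.0448). That last p rests on an arm of 1 array, which is assumed to vary like the other groups. The gene is on the X chromosome, and sex cannot be told apart from genotype here.

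The trifunctional protein, whose subunits are Hadha and Hadhb, handles long chains at the inner membrane. Hadha had 6433 and 6522, 7484 and 6851, and 5892 and 5509.9, with the knockdown arrays lowest. Hadhb had 9654 and 9739.7, 9817 and 8797, and 7085 and 7162, again lowest in the knockdown group. The differences between knockdown and knockout-control were -0.33 (limma adjusted p = 0.339) and -0.38 (0.267). Echs1, the short-chain hydratase, had a difference of -0.49 (limma adjusted p = 0.174), with 4310 and 3906 in the knockdown group against 5955 and 5565 in knockout-control. For Hadh, the dehydrogenase of shorter chains, the brightest probe set had a value on 1 knockdown array only, 10084, below the wild-type and knockout-control arrays at 11181 to 12135. Its further probe sets had 5899 and 6081, and 4962 and 4113, in the knockdown group, below their 6866 to 7117 and 5449 to 5969 on the other arrays.

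The enzymes for unsaturated fatty acids were not called, except Eci1 and Eci2 under other processing. Decr1, the dienoyl-CoA reductase, had 3756 and 4101, 4369.9 and 4538, and 4948 and 4208, with overlapping PGC-1alpha -/- groups and a log2 difference of 0.22 from wild type in the knockdown group (limma adjusted p = 0.415). Its second probe set had the opposite sign in all 3 comparisons, at -0.52 for that one. The isomerases Eci1 and Eci2 had values of 0.23 and 0.48 there (limma adjusted p = 0.359 and 0.0863). With quantile normalization both were called in that comparison (limma adjusted p = 0.048 and 0.0138). In knockout-control against wild type they had 0.41 and 0.25 (limma adjusted p = 0.143 and 0.395). Eci1 had 5193 and 5132 in knockout-control against 3765 and 3968 in wild type.

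Electron transfer showed the pattern of Acadvl in Etfdh. Etfdh, which passes electrons from the flavoprotein to ubiquinone, had 4510.1 and 4439 in wild type, 4619 and 4303 in knockout-control and 2742 and 2411 in the knockdown group. Wild type and knockout-control overlapped, and both knockdown arrays lay below them. It was 1.73-fold lower in knockdown than in wild type (log2 -0.79 ± 0.14 SE, limma adjusted p = 0.0127). Against knockout-control the difference was the same size, -0.79, and missed the threshold (adjusted p = 0.0539 in limma). With the mean of its probe sets, one of which is under the filter, the value against wild type was -0.32 (limma adjusted p = 0.252).

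Etfa, the alpha subunit of the flavoprotein, had 8657 and 8817, 7855 and 7488, and 6326 and 5795, with the groups stepping down without overlap. It was 1.44-fold lower in knockdown than in wild type (log2 -0.53 ± 0.14 SE, limma adjusted p = 0.0484). Etfb, the beta subunit, was not called, with -0.22 for the same comparison (0.392).

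Of the ketone body enzymes, Acat1 fell in knockdown against wild type and Oxct1 just missed the threshold. Acat1, the mitochondrial acetoacetyl-CoA thiolase, had 8018 and 8216 in wild type, 6815 and 6470.5 in knockout-control and 5271 and 4249.9 in the knockdown group. The 3 groups did not overlap, and Acat1 was 1.71-fold lower (log2 -0.77 ± 0.15 SE, limma adjusted p = 0.0183). Its further probe sets gave -0.97 and -1.50. Oxct1, which activates acetoacetate for use and is low in liver, had 7871 and 8087, 6503 and 6344, and 6028 and 4787. Both PGC-1alpha -/- groups lay below wild type, with a difference of -0.57 ± 0.16 SE in knockdown (limma adjusted p = 0.0561) and -0.69 to -0.98 in its 3 further probe sets. Bdh1, which interconverts the ketone bodies, was under the filter, at 46.1 to 234 over the arrays.

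**Figure D3:**
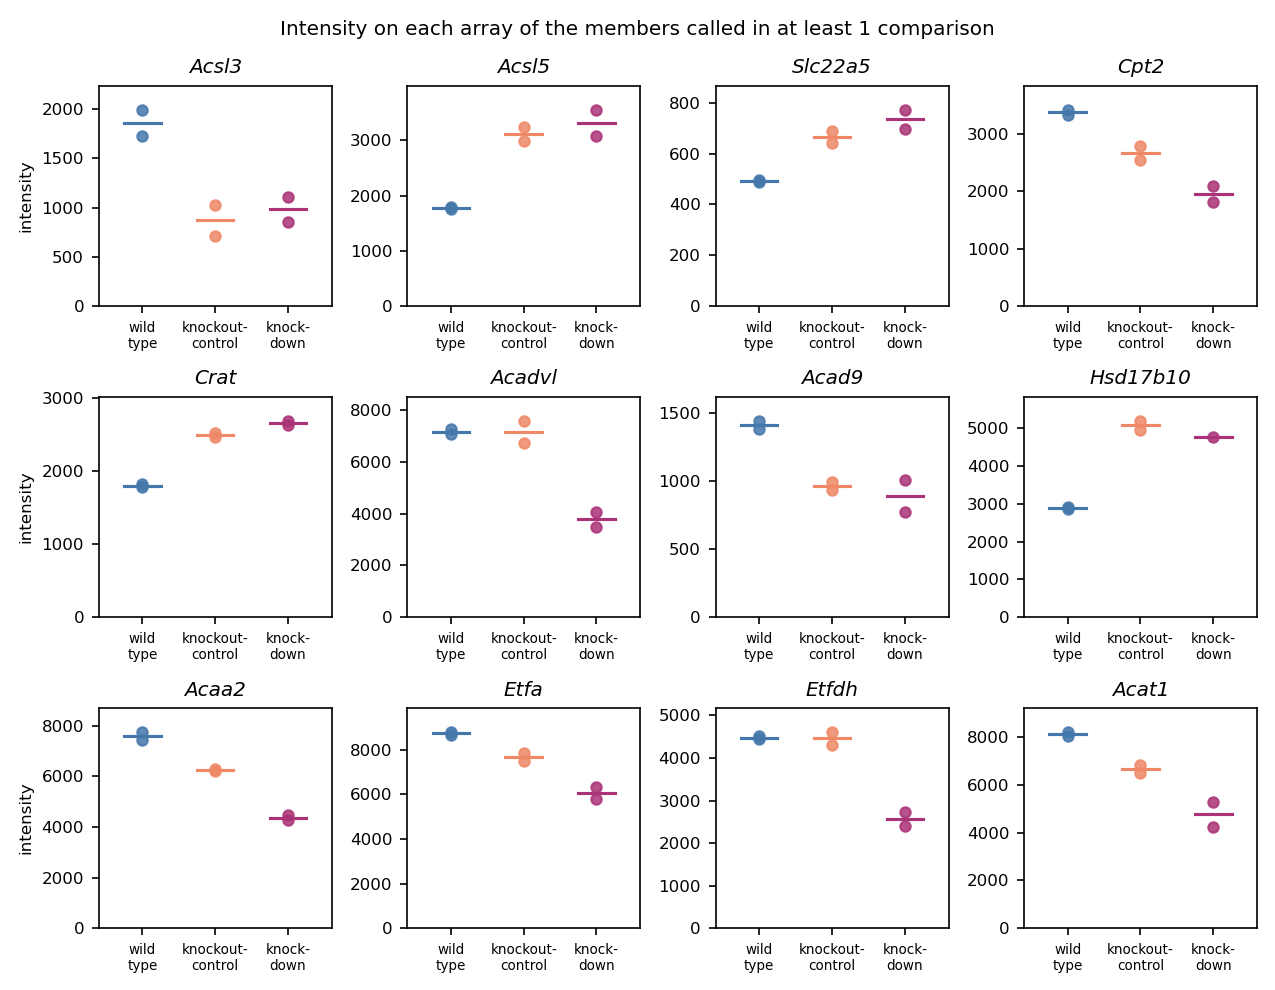
Intensity on each array (points) and group mean (horizontal lines) of the enzymes called in at least 1 comparison, for wild type, knockout-control and knockdown. Acadvl and Etfdh are level between wild type and knockout-control and lower in the knockdown group, while Acsl5 and Hsd17b10 are higher in both PGC-1alpha -/- groups.

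Most further probe sets of the same gene had a fold change of the same sign as the brightest one. Of 36 enzymes with a probe set, 14 had 1 and 22 had several, and 17 had several above the filter, with 26 further probe sets. Of these 26, 20 had the sign of the brightest one for knockout-control against wild type, 23 for knockdown against knockout-control and 21 for knockdown against wild type. Opposite signs came from Acsl4, Crat, Decr1, Hadh and Hadhb in the first, from Acad10, Crat and Decr1 in the second and from Acsl4, Crat and Decr1 in the third. The change was in the same direction and larger in 12, 18 and 15 of the 26.

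**Figure D4:**
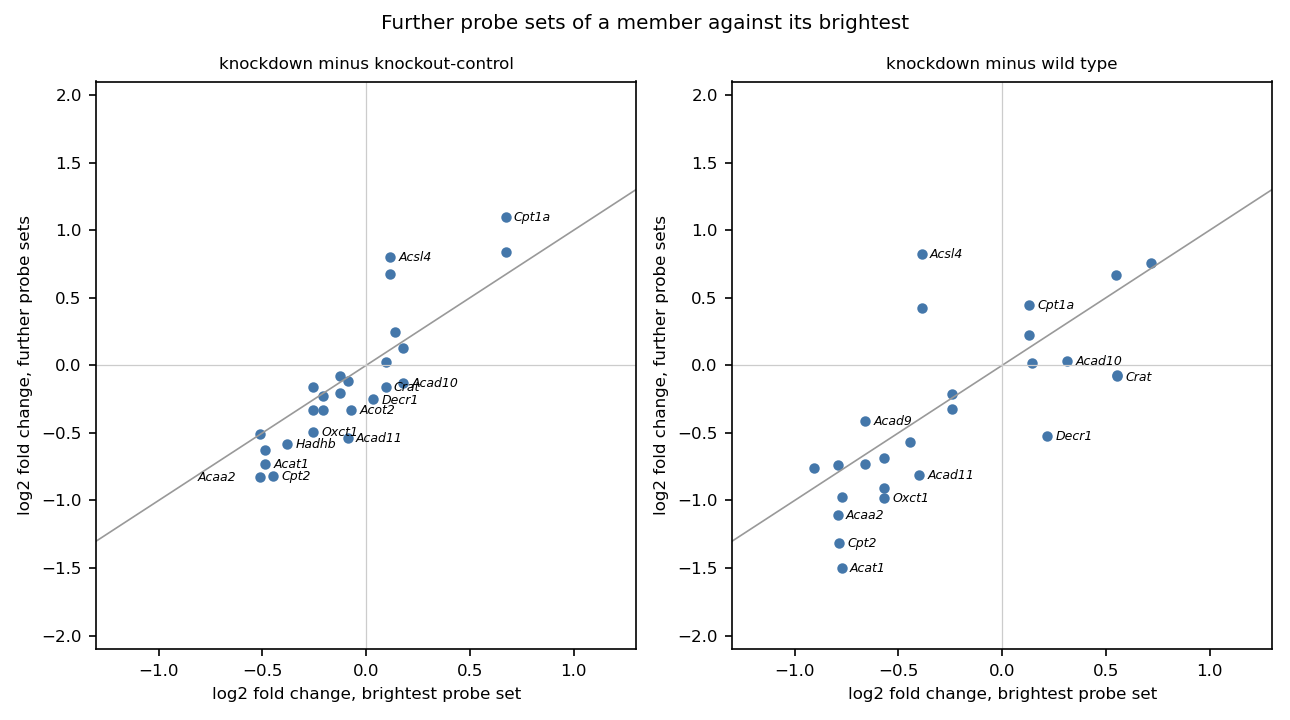
Log2 fold change of each further probe set of an enzyme against that of its brightest probe set, in the comparisons of knockdown with knockout-control and with wild type, with the line of equality. Of the 26 points, 23 and 21 share the sign of the brightest probe set, and Crat and Decr1 have a point of opposite sign in both panels.

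The other pathway genes listed with the enzymes included 29 names, of which 20 could be tested. In knockout-control against wild type 3 rose (Acot1, a cytosolic thioesterase, Acsm3, a medium-chain acyl-CoA synthetase, and Acacb, which makes malonyl-CoA at mitochondria) and 1 fell (Slc25a20). Acacb had 821 and 867 in wild type, 2060 and 2067 in knockout-control and 1150 and 1044 in the knockdown group. Both knockout-control arrays lay above the other 4, and Acacb was 1.86-fold lower in knockdown than in knockout-control (limma adjusted p = 0.037), the only call of the 20 there. In knockdown against wild type Acsm3 rose and Slc25a20 fell. Slc25a20, the translocase that exchanges acylcarnitine for carnitine across the inner membrane, had 3616 and 3874, 2081 and 2231, and 1878 and 1361, and it was 2.31-fold lower in knockdown than in wild type (limma adjusted p = 0.0054).

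Of 12 regulators, 1 rose in knockout-control against wild type (Rxra). In knockdown against knockout-control 1 rose (Pdk4) and 2 fell (Esrra and Ppargc1b). In knockdown against wild type 2 rose (Rxra and Pdk4) and 2 fell (Esrra and Ppargc1b). Ppargc1b is the target of the siRNA, so its fall was set by the design. Esrra (estrogen-related receptor alpha, a partner of both coactivators) had 949.9 and 926 in wild type, 1033 and 1226 in knockout-control and 498 and 464 in the knockdown group. Both knockdown arrays were below the other 4, and Esrra was 2.26-fold lower than in knockout-control (limma adjusted p = 0.0202). Pdk4, which restrains pyruvate use when fat is burned, had 3404 and 3277 in the knockdown group against 1259 to 1661 on the other arrays, a 2.28-fold rise over knockout-control (limma adjusted p = 0.0279). Ppara, the fatty acid receptor of the PPAR family, had log2 differences of 0.04, -0.04 and -0.00 in the 3 comparisons.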

How the data were processed

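The authors deposited 1 linear intensity per probe set for 45037 probe sets on 6 arrays of biotinylated total RNA, per the labels. No source used here names the summarisation, scaling or background correction. Cells without a number were left missing. Gene names came from a platform annotation of 2016 and a GRCm38 gene table (34945 with 1 symbol, 932 with several and 9160 with none), and the brightest of each gene was used. Genes under the 40th percentile of mean log2 signal were left out. Values were log2(intensity + 32), so folds of dim genes are understated. One limma model (3.58.1, R 4.3.3) of group means was fitted to all arrays, with 3 residual and 5.45 prior degrees of freedom. Every adjusted p is from limma, by Benjamini-Hochberg over all genes tested, and calls were made under 0.05.

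Arrays and their number limit the precision, and 2 against 2 arrays allow no exact permutation test under 0.05. Each p-value sets a group difference against the spread between these samples, which limma moderates with the spread of all genes. Values were given per array for each called enzyme, the 3 highest and 3 lowest in each comparison and a fixed set of central enzymes. The enzymes and lists were chosen with earlier results of these data known, as were the hexamer, NRF1 and ETS motifs. Proteins were not used here. In data simulated for knockdown against knockout-control with 13658 genes, 2% of genes changed by 0.5 on the log2 scale were called, 54% of those changed by 1 and 94% of those changed by 2. Only 50 genes were changed at each size, with independent noise on each array, so the rates need not hold for the measured data. Alternatives covered the pseudocount, filter, scaling, probe set, model settings, samples fitted and each array left out.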

Additional observations from a re-analysis of the deposited data

How the results depend on the processing

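For knockout-control against wild type the called enzymes numbered 3 and all genes called 826. They came to 0 and 364 with no filter, 7 and 1654 with quantile normalization, 5 and 1444 with arrays scaled to the same median and 6 and 1786 when only those groups were fitted, and the genes to 405 with the mean of probe sets. With an array left out they ran from 0 to 6 and from 232 to 1786. For knockdown against knockout-control the counts of 1 and 114 became 2 enzymes with a pseudocount of 64, and 2 and 199 when the filter was raised to the 60th percentile. They were 3 and 377 with quantile normalization, 3 and 308 with scaled medians, 7 and 325 with trend and robust settings, 0 and 9 with no filter, 0 and 8 with the mean of probe sets, and 0 and 47 with only those groups. With an array left out they ran from 0 to 2 and from 8 to 539. For knockdown against wild type the counts of 12 and 1365 became 5 and 585 with no filter, 4 and 692 with the mean of probe sets and 7 enzymes with only those groups, and the genes 2305 with quantile normalization. With an array left out they ran from 0 to 12 and from 327 to 2339. The median of the enzymes there moved from -0.22 to -0.089 with quantile normalization and ran from -0.35 to -0.14 with an array left out. It ran from -0.31 to -0.055 for knockdown against knockout-control and from -0.026 to 0.025 for knockout-control against wild type.

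Replicate numbers gave no common pairing of the samples. Deviations of same-numbered arrays correlated at 0.20 for wild type with knockout-control and -0.15 for wild type with knockdown. For knockout-control with knockdown the correlation was -0.50, so array 1 of each tended to deviate with array 2 of the other. The model of group means leaves that structure out, and its source was not tested. With a replicate block the called enzymes were 2, 0 and 6 and the genes 410, 22 and 729. A crossed replicate block, with the numbers of the knockdown arrays swapped, was chosen after seeing the data. It gave 6, 4 and 17 enzymes and 2043, 770 and 2826 genes.

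Signs turned for differences that no test called. For knockout-control against wild type, Acadl came to -0.016 with scaled medians and -0.36 with the mean of probe sets, Acadvl to 0.013 with quantile normalization, Decr1 to -0.043 with the mean of probe sets, and Etfdh to 0.025 with the mean of probe sets and 0.0083 with quantile normalization. Decr1 came to -0.11 and -0.15 with the mean of probe sets in the knockdown comparisons, and Acadm to 0.036 against wild type with quantile normalization. With 1 array left out, knockout-control against wild type ran from -0.049 to 0.053 for Acadl, -0.090 to 0.082 for Acadvl, -0.056 to 0.046 for Etfdh and -0.14 to 0.018 for Hadhb. Knockdown against knockout-control ran from -0.16 to 0.022 for Acads and -0.081 to 0.15 for Decr1, and knockdown against wild type from -0.031 to 0.29 for Cpt1a. The causes were not tested.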
